A study of Rattus norvegicus with 24 samples.

Results

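BZP (benzylpiperazine) and TFMPP (trifluoromethylphenylpiperazine) are synthetic piperazines sold as stimulant designer drugs. BZP carries its aromatic ring on the piperazine through a methylene bridge, as a benzyl group, while TFMPP carries a phenyl ring directly. The comparison reported here is the change with BZP minus the change with TFMPP, each change being a treated array minus the DMSO control that the labels assign to it. It covered 12 of the 24 arrays of the series, in 4 groups of 3, and 31042 of 31099 probe sets, the other 57 being Affymetrix controls. All cells were primary rat hepatocytes kept between layers of collagen, and every group was exposed for 24 h. The BZP group received 625 µM and the TFMPP group 35 µM, each the drug's EC20 per the labels, and the control groups of both drugs received 0.1% DMSO. The doses therefore differed between the drugs by design, and a difference below is between these exposures, not between equal concentrations. The strain, sex and age of the rats, and whether replicates came from separate animals, are not given in the sources used here, so the p-values, from a model of all 24 arrays, speak only of the spread among those arrays, part of which may be technical.

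Hepatocytes carry the interferon system of most nucleated cells. Type I interferon binds its receptor and activates a transcription factor complex that contains Irf9. The complex binds short GAAA repeats in front of antiviral genes, and Usp18, itself an interferon-stimulated gene, then dampens the receptor. Hepatocytes also hold the liver's drug-metabolising enzymes, fatty acid oxidation and bile acid synthesis, which fade in culture and under toxic stress.

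The 12 arrays had medians between 4.45 and 4.51 on the log2 scale of RMA, and no pair of arrays was identical. Albumin had a mean level of 14.06, at the top of these arrays' range, and the 9 measured hepatocyte markers had array medians of 12.71 to 13.23. None of the 57 control probe sets was called in the difference, and none reached an unadjusted p under 0.05. The 12 poly-A probe sets among them had differences of 0.163 to 0.45, all positive, against a median of 0.009 for all genes. The part of this offset in the results was not tested. The BZP and TFMPP controls of number 1 correlated at 0.9971 across genes and those of number 2 at 0.9968, whereas those of number 3 correlated at 0.9721. The controls of number 3 therefore stood further apart than the others, and values are given by number where this bears on a result. In these bulk samples fewer cells of a type and less RNA per cell cannot be told apart.

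A small set of genes separated the drugs. Interferon-stimulated genes such as Usp18, Oas1a and Irf9 fell with BZP and had positive mean changes with TFMPP, and Sdcbp2, Dnase2b, Pvt1 and Gpam rose with BZP by more than their change with TFMPP. With limma's moderated test and Benjamini-Hochberg adjustment over all probe sets, 4 probe sets were higher with BZP than with TFMPP (0.0129% of those tested) and 12 were lower (0.0387%). At an unadjusted p under 0.05 there were 995 higher and 999 lower, together 6.42% of probe sets. Represented by the probe set with the highest mean level, 4 of 14217 genes were higher (0.0281%) and 9 were lower (0.0633%). In each of these 13 genes the 3 BZP changes and the 3 TFMPP changes did not overlap. Of all genes, 6.84% had BZP above TFMPP without overlap and 6.04% had it below. The calls were made on these same changes, so the lack of overlap is not separate support. All 13 were also called in the BZP change itself, and 3 (Gstt3, Irf9 and Apol9a) in the TFMPP change. The calls depended on the pairs: none of the 13 genes was called without BZP pair 1, without TFMPP pair 2 or without TFMPP pair 3, while 6, 4 and 11 were called without BZP pair 2, BZP pair 3 and TFMPP pair 1. With only the arrays of BZP and TFMPP in the model, 4 of the 13 were called (Sdcbp2, Dnase2b, Pvt1 and Apol9a). None was called when the pair terms were left out or when treated arrays were compared without their controls. Every one of the 13 differences kept its sign in all of these fits, which is largely not separate support. Leaving out the pair terms or the arrays of the other drugs does not alter the estimate. With pairs that do not overlap, leaving out 1 pair cannot reverse the sign.

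**Figure D1:**
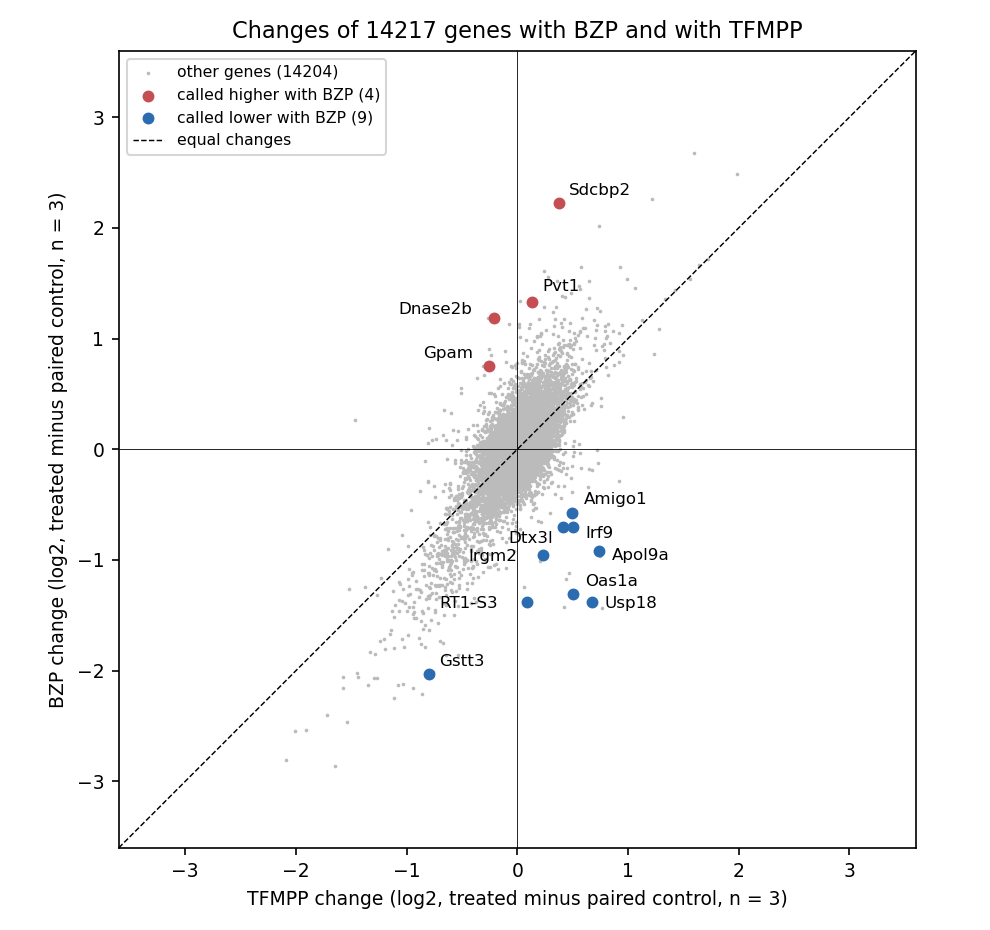
Change with BZP (vertical, log2) against change with TFMPP (horizontal, log2), each the mean of 3 pairs, for 14217 genes. The 13 called genes are coloured and named; the cloud of other genes runs from lower left to upper right (Pearson r 0.717), and 8 of the 9 genes lower with BZP sit right of 0 for TFMPP.

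Most other changes ran the same way with both drugs. Across the 14217 genes the changes with BZP and TFMPP correlated at a Pearson r of 0.717, given as a description because genes are not independent replicates. With BZP 947 genes rose (6.66%) and 848 fell (5.96%), and with TFMPP 124 rose (0.872%) and 243 fell (1.71%). Of the 325 genes called with both, 323 moved the same way. The exceptions were Irf9 and Apol9a, both lower with BZP and higher with TFMPP.

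**Figure D2:**
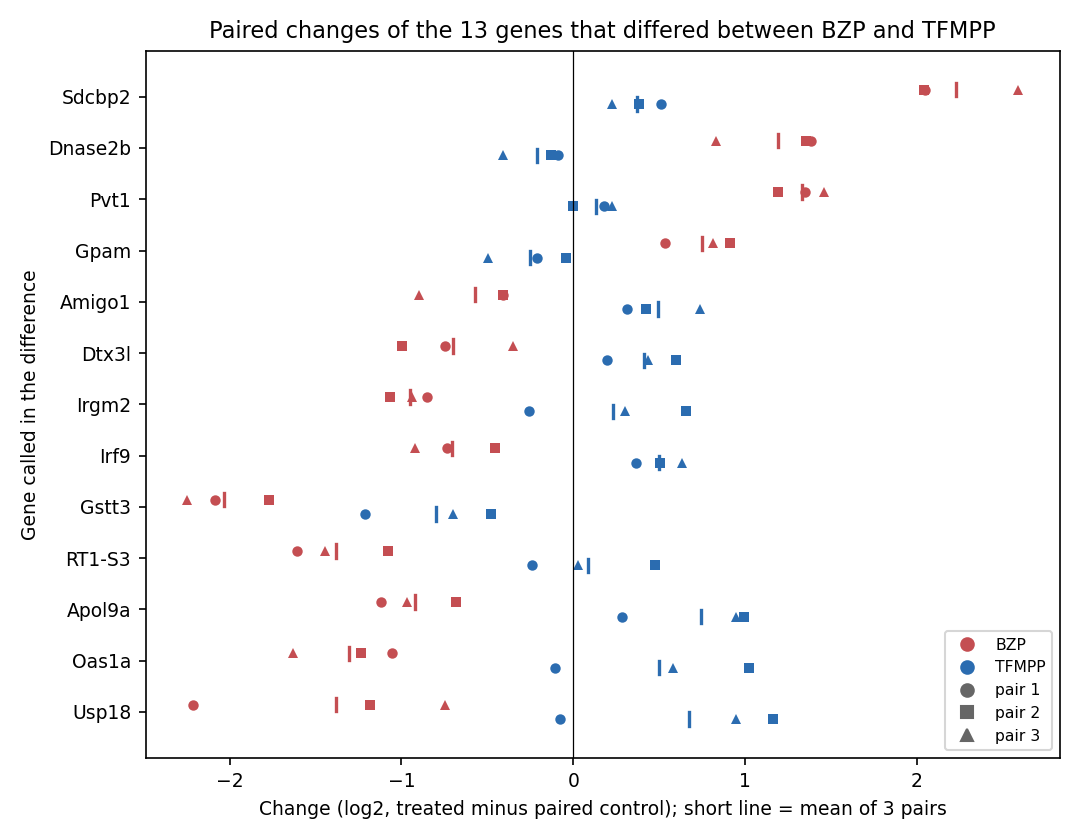
Change in each pair (log2, treated minus its control) for the 13 genes called in the difference, with BZP in red and TFMPP in blue; symbols mark pairs 1 to 3 and short lines the mean. In every gene the red and blue points do not overlap, and Usp18 ranges from -2.21 to -0.75 with BZP and from -0.08 to 1.16 with TFMPP.

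Usp18, the protease that removes the ubiquitin-like protein Isg15 and dampens the interferon receptor, had the largest called difference. Its log2 levels in the BZP controls were 7.88, 9.29 and 7.76 for pairs 1 to 3, and 5.67, 8.11 and 7.01 after BZP. In the TFMPP controls they were 8.21, 8.79 and 8.06, and 8.14, 9.95 and 9.00 after TFMPP. All BZP-treated arrays were thus below their controls, while TFMPP pair 1 was about level and pairs 2 and 3 were above. The change was -1.38 with BZP and 0.68 with TFMPP, a difference of -2.06 (SE 0.32, n = 3 pairs each, 4.16-fold, 95% interval -2.74 to -1.38, limma adjusted p = 0.0292).

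Irf9, the DNA-binding subunit of the interferon-activated complex, had the smallest adjusted p among the lower genes. Its levels went from 6.66, 7.54 and 6.32 in the controls to 5.92, 7.08 and 5.40 with BZP. With TFMPP they went from 6.75, 7.24 and 7.02 to 7.12, 7.74 and 7.65. It fell in all 3 BZP pairs and rose in all 3 TFMPP pairs. The difference was -1.20 (SE 0.15, 2.30-fold, adjusted p = 0.0103), with adjusted p = 4.72e-04 for the fall with BZP and 0.0219 for the rise with TFMPP. A dimmer probe set of Irf9 gave -1.11 and was not called (adjusted p = 0.0844).

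Apol9a, a member of the apolipoprotein L family, was the other gene called in opposite directions. Its changes were -1.12, -0.68 and -0.97 with BZP and 0.28, 0.99 and 0.95 with TFMPP. The difference was -1.66 (SE 0.23, adjusted p = 0.0124). Oas1a, which makes the oligoadenylate messenger that activates RNase L, changed by -1.05, -1.24 and -1.63 with BZP and by -0.10, 1.02 and 0.58 with TFMPP. Its difference was -1.81 (SE 0.27, adjusted p = 0.0234), although its controls were also higher for BZP than for TFMPP, by 0.11, 0.53 and 1.05 for numbers 1 to 3.

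The remaining lower genes with immune roles were RT1-S3, Irgm2 and Dtx3l. RT1-S3 and Irgm2 also fell with MDBP and MeOPP, the other 2 piperazines of the series. RT1-S3, a nonclassical class I histocompatibility gene, changed by -1.61, -1.08 and -1.45 with BZP and by -0.24, 0.48 and 0.03 with TFMPP, a difference of -1.47 (adjusted p = 0.0216). Its 4 called probe sets had differences of -1.69 to -1.47. Class I genes of the rat are near-identical copies, so the gene behind these probe sets is uncertain. Irgm2, an immunity-related GTPase, changed by -0.85, -1.07 and -0.94 with BZP and by -0.26, 0.65 and 0.30 with TFMPP, a difference of -1.19 (adjusted p = 0.0393). Dtx3l, a ubiquitin ligase that works with Parp9, differed by -1.11 (adjusted p = 0.0393), with BZP changes of -0.75, -0.996 and -0.35 and TFMPP changes of 0.19, 0.60 and 0.44. Parp9 itself differed by -0.74 and did not pass (adjusted p = 0.323).

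The sequences in front of 4 of these genes are shown because GAAA repeats are the binding motif of the Irf9 complex; the search was chosen after the values were seen. They are the 150 bases before the annotated start in RefSeq's GRCr8 assembly, 5′ to 3′ on the gene's strand, with matches to GAAANNGAA on either strand in capitals. Oas1a lies on the plus strand at chr12:41330316-41330465, Apol9a on the minus strand at chr7:111028214-111028363, Irgm2 on the plus strand at chr10:42889820-42889969 and Irf9 on the plus strand at chr15:33065686-33065835.
Oas1a: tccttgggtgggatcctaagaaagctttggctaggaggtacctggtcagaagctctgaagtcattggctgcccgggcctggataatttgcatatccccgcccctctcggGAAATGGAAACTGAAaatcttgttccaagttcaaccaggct
Apol9a: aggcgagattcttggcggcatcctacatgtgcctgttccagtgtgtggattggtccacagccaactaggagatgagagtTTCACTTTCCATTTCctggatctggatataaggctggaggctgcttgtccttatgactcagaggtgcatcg
Irgm2: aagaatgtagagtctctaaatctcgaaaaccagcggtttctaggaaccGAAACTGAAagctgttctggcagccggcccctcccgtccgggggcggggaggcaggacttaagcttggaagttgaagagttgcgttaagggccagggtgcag
Irf9: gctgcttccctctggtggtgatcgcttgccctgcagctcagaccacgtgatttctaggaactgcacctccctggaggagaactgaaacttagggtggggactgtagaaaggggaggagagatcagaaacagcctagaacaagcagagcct
In Oas1a and Apol9a 2 overlapping matches begin 41 and 71 bases before the start, and in Irgm2 the match begins 102 bases before it. Irf9 has none in these letters. Over the whole window of 250 bases before and 50 after the start, 5 of the 8 lower genes with a promoter in the table held the motif (62.5%), as did 16 of 24 members of the interferon list (66.7%), 892 of all 11733 tested genes with a promoter (7.60%) and 0 of 3 higher genes. The lower genes and the list share members. A match is a description of letters and not a binding site.

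**Figure D3:**
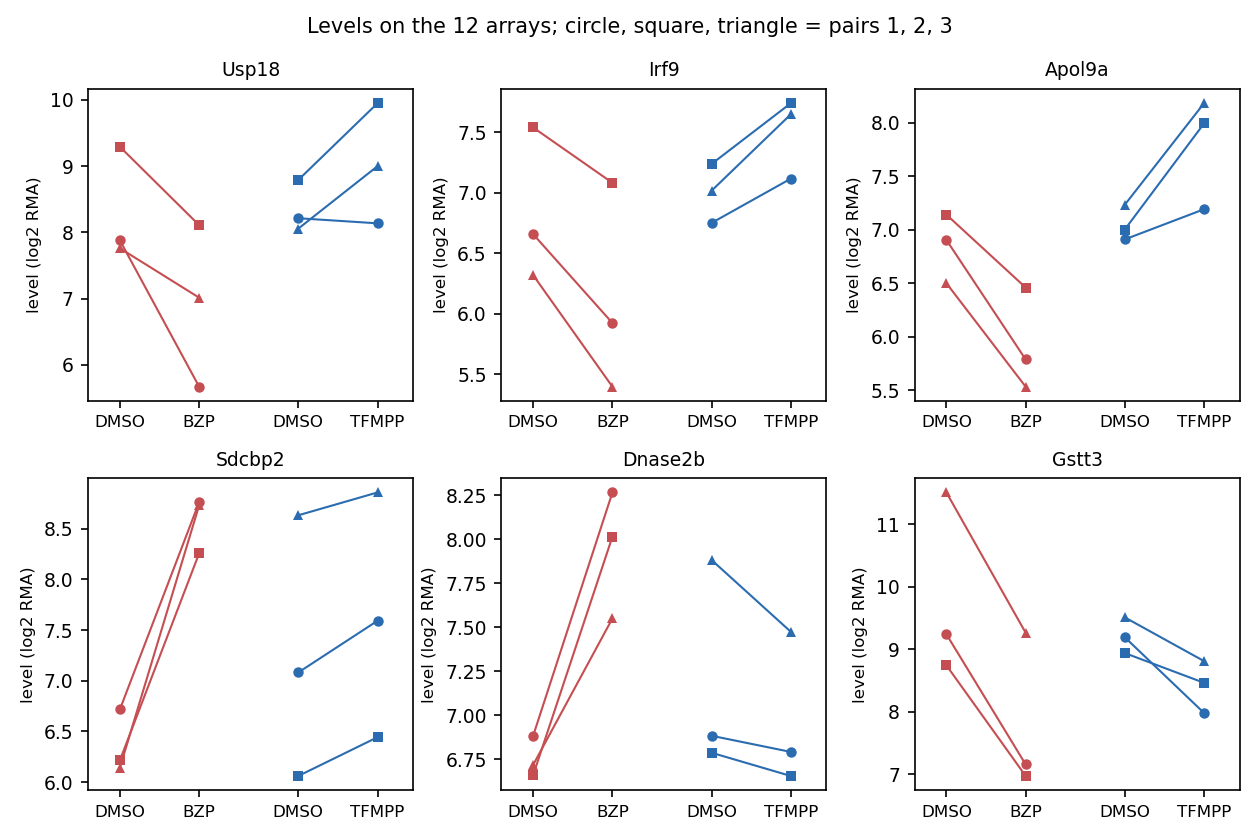
Levels (log2 RMA) of 6 called genes on the 12 arrays, each line joining a DMSO control to its treated array, with BZP in red and TFMPP in blue and circles, squares and triangles for pairs 1 to 3. The lines of Usp18, Irf9 and Apol9a slope down with BZP and, except Usp18 in pair 1, up with TFMPP; the TFMPP control of pair 3 stands above the others in Sdcbp2 and Dnase2b.

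Over the whole interferon response list, 31 of 34 genes were measured. In the difference 3 were called lower (Usp18, Oas1a and Irf9) and 0 higher, and the list median was -0.61 against 0.01 for all genes. None of the 3 was called with only the arrays of the 2 drugs in the model (adjusted p = 0.19, 0.0734 and 0.0516), and Usp18 was not called with an intensity trend and robust prior (0.101). The difference was negative in 29 of the 31 members, and the 3 pairs of each drug did not overlap, BZP below TFMPP, in 12 of them, against 6.04% of all genes (6.84% had BZP above). With BZP 10 members fell and 0 rose (median -0.23), against 5.96% and 6.66% of all genes. With TFMPP 0 fell and 2 rose (median 0.39), the latter being Irf9 and Tap1, against 1.71% and 0.872% of all genes. The members that fell with BZP were Usp18, Oas1a, Irf9, Irf7, Isg15, Mx2, Rig1, Ifih1, Rtp4 and Cxcl9. By pair, the list median was -0.30, -0.46 and -0.26 with BZP and -0.15, 0.75 and 0.38 with TFMPP. TFMPP pair 1 thus lay on the side of BZP, with 25 of 31 members negative, whereas 4 and 5 were negative in pairs 2 and 3. In the BZP pairs 24, 23 and 23 members were negative.

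Several members had differences as large as the called genes without passing the test. Isg15, the ubiquitin-like modifier, went from levels of 8.48, 9.56 and 7.85 in the BZP controls to 6.48, 8.71 and 6.38, and from 8.85, 8.99 and 8.65 in the TFMPP controls to 8.39, 10.73 and 9.65. Its difference was -2.20 (SE 0.40, adjusted p = 0.0844). Rtp4 differed by -1.58 (adjusted p = 0.0768), the antiviral GTPase Mx2 by -1.85 (adjusted p = 0.208) and Irf7, a transcription factor that amplifies interferon production, by -1.72 (adjusted p = 0.195). In all 4 the pairs did not overlap, and TFMPP pair 1 was negative while pairs 2 and 3 were positive. Without TFMPP pair 1, the pair on the side of BZP, the adjusted p was 0.00236 for Isg15, 0.00326 for Rtp4, 0.0106 for Mx2 and 0.00322 for Irf7. Without TFMPP pair 2 these were 0.471, 0.444, 0.656 and 0.693, and without TFMPP pair 3 they were 0.571, 0.498, 0.773 and 0.792.

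By role, the sensors of viral RNA Rig1 and Ifih1 differed by -1.22 and -0.84, neither called, and both fell with BZP (adjusted p = 0.0026 and 0.00536). The fall was not particular to BZP. Both were also called lower with MDBP (median -0.73) and 1 of the 2 with MeOPP (median -0.70), against a median of 0.005 with TFMPP. The 14 antiviral effectors had a median difference of -0.70, with 1 called lower and 13 negative. The 6 genes of peptide loading and the immunoproteasome had a median of -0.14 with none called. B2m, the light chain of class I molecules, differed by -0.02 (95% interval -0.27 to 0.23), an interval narrower than any called difference. Genes upstream of the response, chosen after the values were seen, gave small differences: Ifnar1 0.12, Ifnar2 0.05, Jak1 0.03, Tyk2 0.18 and Irf3 0.11, with none called. The interferon genes Ifnb1 and Ifng had mean levels of 3.28 and 1.99, near the bottom of the array's range, and differed by 0.07 and -0.17, not called.

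**Figure D4:**
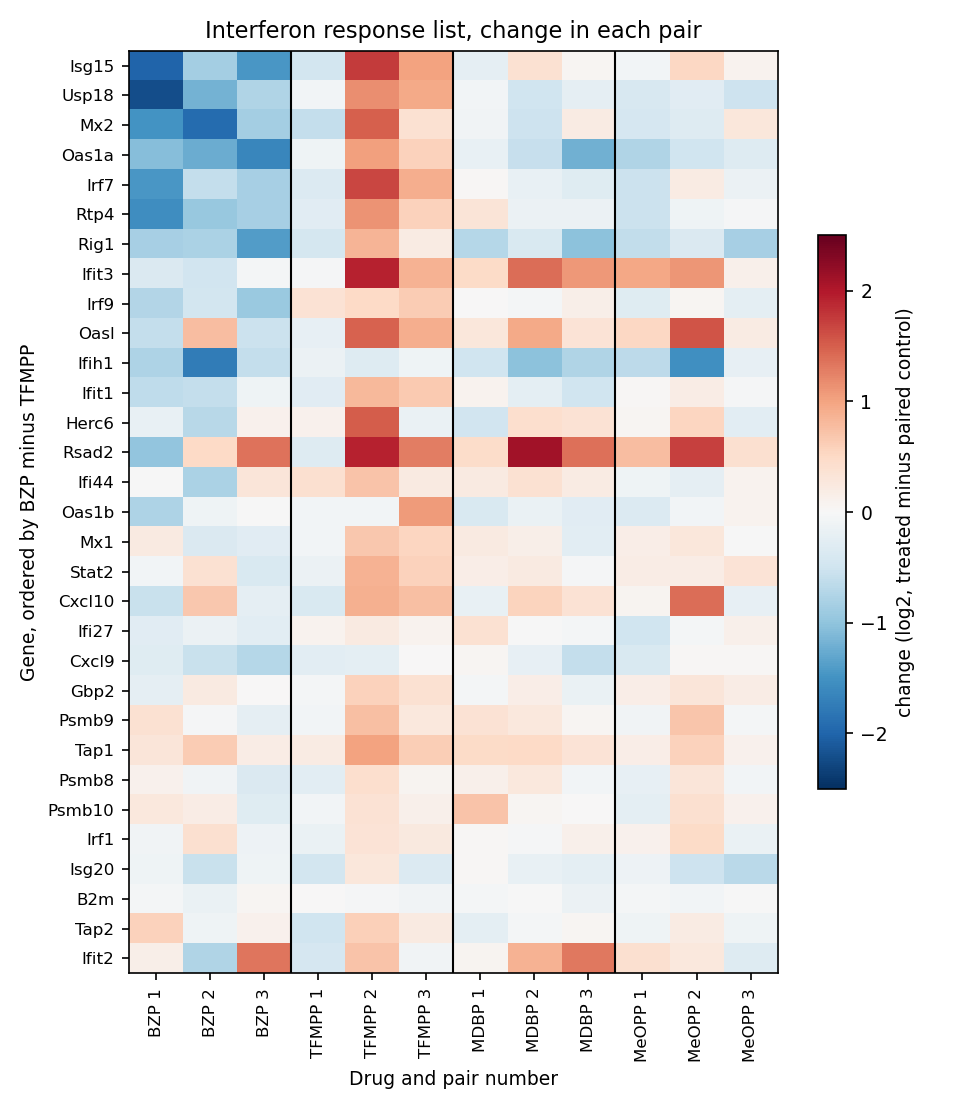
Change (log2, treated minus its control) of the 31 measured interferon list members, ordered by BZP minus TFMPP, in the 12 pairs of all 4 drugs; blue is negative and red positive. The upper rows are blue in the BZP columns and red in TFMPP pairs 2 and 3 but not pair 1, while MDBP and MeOPP columns are paler, as with Usp18 at -0.07 to -0.51 in the MDBP pairs.

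The interferon difference lay between the treated arrays more than between the controls. Set array against array, BZP-treated minus TFMPP-treated list medians were -0.33, -0.61 and -0.73 for numbers 1 to 3, and control minus control medians were -0.09, 0.33 and -0.07. Of 11 measured markers of Kupffer cells and leukocytes, the resident and passing immune cells of the liver, 0 were called in the difference, with a median of -0.07. Their summed level (log2) was 9.43 to 9.97 in BZP-treated arrays, 9.34 to 10.31 in BZP controls, 9.39 to 10.37 in TFMPP-treated arrays and 9.35 to 10.59 in TFMPP controls. Ptprc and Cd3e had mean levels of 3.36 and 3.00. The 3′ minus 5′ signal of beta-actin, a sign of RNA quality, changed by 0.03, -0.03 and 0.33 in the BZP pairs and by 0.62, 0.03 and 0.25 in the TFMPP pairs, so it moved most in TFMPP pair 1. The part of these in the result was not tested.

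The 4 genes higher with BZP belong to different processes. Sdcbp2, a PDZ-domain protein also called syntenin-2, had levels of 6.72, 6.21 and 6.14 in the BZP controls and 8.76, 8.26 and 8.73 after BZP. In the TFMPP controls it had 7.08, 6.06 and 8.63, and 7.59, 6.44 and 8.86 after TFMPP. It rose in each BZP pair by more than in any TFMPP pair, but the TFMPP control of pair 3 was already as high as the BZP-treated arrays. The difference was 1.85 (SE 0.25, 3.61-fold, adjusted p = 0.0124). Without TFMPP pair 3 the difference was 1.78 and without TFMPP pair 2 it was 1.86, neither called (adjusted p = 0.136 and 0.125). Without BZP pair 1 and without BZP pair 3 it was 1.94 and 1.67 (adjusted p = 0.0534 and 0.0506).

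Dnase2b, an acid endonuclease of the DNase II family, rose from 6.88, 6.66 and 6.72 to 8.27, 8.01 and 7.55 with BZP. With TFMPP it went from 6.88, 6.79 and 7.88 to 6.79, 6.66 and 7.47. The difference was 1.40 (SE 0.18, 2.64-fold, adjusted p = 0.0103). As with Sdcbp2, the TFMPP control of pair 3 stood above the other 5 controls. Pvt1, a long noncoding RNA, changed by 1.35, 1.19 and 1.46 with BZP and by 0.18, 0.00 and 0.22 with TFMPP, a difference of 1.20 (adjusted p = 0.0395).

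Gpam, the mitochondrial acyltransferase that starts triglyceride synthesis, changed by 0.53, 0.91 and 0.81 with BZP and by -0.21, -0.04 and -0.50 with TFMPP. The difference was 1.00 (SE 0.17, adjusted p = 0.0458), and a dimmer probe set gave 0.45 and was not called (adjusted p = 0.745). It was the only called member of the 24 genes of fatty acid and triglyceride synthesis, whose median difference was 0.21. In that list 12 genes rose and 2 fell with BZP, and 4 rose and 1 fell with TFMPP. Of all genes 6.66% rose and 5.96% fell with BZP, and 0.872% rose and 1.71% fell with TFMPP. Pnpla3, a lipase of lipid droplets, had the next difference, 0.92 (adjusted p = 0.543).

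The lower genes outside the immune group were Gstt3 and Amigo1. Gstt3, a theta-class glutathione transferase, fell with both drugs, by 2.03 with BZP and by 0.80 with TFMPP on the log2 scale. Its changes were -2.08, -1.77 and -2.25 with BZP and -1.21, -0.48 and -0.70 with TFMPP, a difference of -1.24 (adjusted p = 0.0223). Its BZP control of pair 3, at 11.51, stood above the other 5 controls, which lay between 8.74 and 9.51. It was the only called member of 35 phase II conjugation genes, of which 20 fell with BZP and 11 with TFMPP (median difference -0.26). Over all genes 5.96% fell with BZP and 1.71% with TFMPP. Amigo1, a cell adhesion protein, was dim, with a mean level of 5.17, and differed by -1.06 (adjusted p = 0.0393).

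Beyond the called genes, the changes with BZP were larger than those with TFMPP in genes chosen by their changes with other drugs. Genes called with both MDBP and MeOPP, the other 2 piperazines of the series, were taken as a set after earlier results were known. The changes with BZP and TFMPP were not a criterion. The calls came from the model of all arrays, however, so the spread of the BZP and TFMPP arrays entered them. The choice was therefore not fully independent of those arrays. Of the 301 genes higher with both MDBP and MeOPP, the change with BZP was the larger in 279 (92.7%). The medians were 0.58 with BZP and 0.34 with TFMPP. By pair the medians were 0.52, 0.69 and 0.58 with BZP and 0.32, 0.31 and 0.36 with TFMPP, which do not overlap. Of the 467 genes lower with both, the fall with BZP was the larger in 427 (91.4%), with medians of -0.79 and -0.48. By pair these were -0.67, -0.83 and -0.84 with BZP and -0.59, -0.39 and -0.43 with TFMPP. Within these sets 2 genes of the first were called higher with BZP than with TFMPP (Sdcbp2 and Dnase2b). In the second, 3 were called lower (RT1-S3, Irgm2 and Gstt3). RT1-S3 changed by -0.82 with MDBP and -0.78 with MeOPP, and Irgm2 by -0.64 and -0.57. The other genes called in the difference were in neither set. Genes of a set are not replicates, so no test was made on the counts.

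The liver-specific lists followed the same order without calls in the difference. Constitutive cytochromes P450 had a median of -0.93 with BZP and -0.55 with TFMPP, 15 and 8 of 21 fell, and the median difference was -0.48. Fatty acid oxidation and PPAR alpha targets had medians of -0.91 and -0.49, with 17 and 9 of 27 lower. Methionine and one-carbon genes had medians of -0.59 and -0.26, with 12 and 7 of 18 lower, and bile acid synthesis and transport had -0.71 and -0.46, with 14 and 7 of 24 lower. Amino acid breakdown and the urea cycle had -0.65 and -0.41, with 29 and 13 of 40 lower. In each of these 5 lists 0 genes were called in the difference. Over all genes 5.96% fell with BZP and 1.71% with TFMPP, so fewer calls with TFMPP were not particular to these lists.

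**Figure D5:**
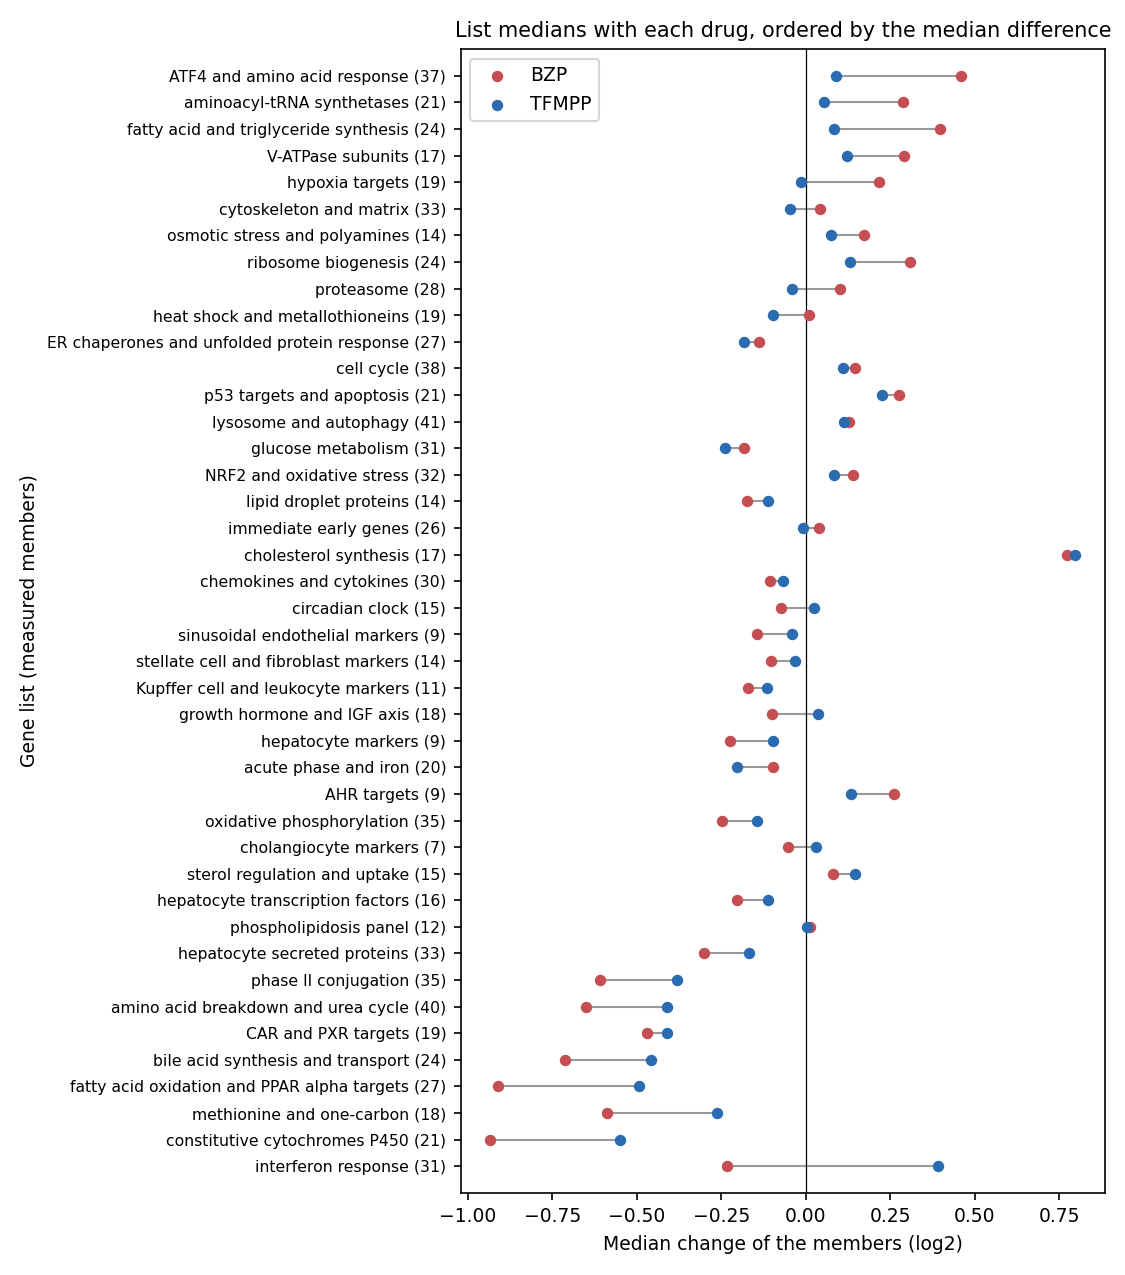
Median change (log2) of the measured members of 42 gene lists with BZP (red) and TFMPP (blue), ordered by the median difference, with the number of members in brackets. The interferon list is at the bottom and has its medians on opposite sides of 0, the metabolic lists above it are lower with BZP, and cholesterol synthesis has medians of 0.77 and 0.80.

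The difference was largest for number 3, whose controls differed, in all 5 lists. The median difference of the P450 list was -0.18, -0.19 and -0.56 for numbers 1 to 3. Its BZP controls were above the TFMPP controls by 0.11, 0.03 and 1.21, while the treated arrays differed by 0.07, -0.15 and 0.32. With treated arrays alone its median difference was -0.03, and those of bile acid genes, amino acid breakdown and phase II conjugation turned to 0.10, 0.07 and 0.06. That of fatty acid oxidation was -0.32 and became -0.12 with treated arrays alone, and that of methionine and one-carbon genes was -0.36 and became -0.04. The sinusoidal endothelial markers set the controls of number 3 apart most, with a median of -2.44 for BZP against TFMPP, and 0 of their 9 measured members were called in the difference of changes.

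Single metabolic genes with the smallest adjusted p, chosen after their values were seen, were Cbs and Cpt1a. Cbs, which starts the conversion of homocysteine to cysteine, changed by -1.03, -1.41 and -1.70 with BZP and by -0.65, -0.13 and -0.33 with TFMPP, a difference of -1.01 (adjusted p = 0.0783). Cpt1a, which admits long-chain fatty acids to mitochondria, changed by -0.78, -1.22 and -1.21 with BZP and by -0.27, -0.14 and 0.11 with TFMPP, a difference of -0.97 (adjusted p = 0.113). Both of its probe sets gave like values. Among the alcohol- and fatty acid-oxidising cytochromes, Cyp2e1 differed by -1.25 (adjusted p = 0.339) and Cyp4a3 by -1.06 (adjusted p = 0.253), both after falls with BZP. The bile acid importer Slc10a1 fell with both drugs, by 2.86 with BZP and by 1.64 with TFMPP, and the difference of -1.21 was not called (adjusted p = 0.44). On the arrays of number 3 the BZP control was above the TFMPP control by 2.63 in Slc10a1, 1.98 in Cbs, 1.26 in Cyp2e1, 1.07 in Cpt1a and 0.65 in Cyp4a3. The BZP-treated array of that number was above the TFMPP-treated array by 2.14 in Slc10a1, 0.60 in Cbs and 0.69 in Cyp2e1, against the sign of their differences, while Cpt1a and Cyp4a3 gave -0.25 and -0.26.

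Cholesterol synthesis genes rose with both drugs, with like medians. Of 17 genes 13 rose with BZP and 11 with TFMPP, against 6.66% and 0.872% of all genes. The list medians were 0.77 and 0.80, and 0 genes were called in the difference or had pairs that did not overlap. Over all genes 0.0281% were called higher and 0.0633% lower, so 0 calls among 17 genes is near that share. Pairs did not overlap in 6.84% of all genes with BZP above and in 6.04% with BZP below. Fdps, which makes farnesyl pyrophosphate, differed by 0.05 (SE 0.16) after rises of 1.17 and 1.13. By number, the median difference of the list was 0.26, 0.04 and -0.38. For number 3 the BZP controls were above the TFMPP controls by 0.855, and the treated arrays by 0.338. The bile salt exporter Abcb11 fell by 1.32 with BZP and by 1.26 with TFMPP, and the 95% interval of its difference, -0.42 to 0.31, lies within 2-fold in both directions.

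Of 36 single genes listed as of interest, 33 had a probe set and 0 were called in the difference. Gpnmb, a lysosomal glycoprotein, rose with both drugs, by 2.68 and 1.59, and differed by 1.09 (adjusted p = 0.247), with pairs that did not overlap. The NRF2 target Nqo1 rose with TFMPP by 0.75 (adjusted p = 0.00403) and had 0.39 with BZP (adjusted p = 0.0572), and the difference of -0.36 was not called. The AHR target Cyp1a1 had changes of 2.31, 0.84 and -0.58 with BZP and of 1.91, 1.24 and 0.56 with TFMPP, which overlap.

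The ATF4 and amino acid response list had a median of 0.46 with BZP and 0.09 with TFMPP, with 12 of 37 genes higher and 2 lower with BZP and 0 higher and 1 lower with TFMPP. Of all genes 6.66% rose and 5.96% fell with BZP, and 0.872% rose and 1.71% fell with TFMPP. None of the list was called in the difference (median 0.26). By number the median difference was -0.09, 0.52 and 0.57, and with treated arrays alone the median was -0.04. Asns, which makes asparagine, changed by 0.20, 1.02 and 1.71 with BZP and by 0.29, -0.17 and 0.35 with TFMPP (difference 0.82, adjusted p = 0.745). Fgf21, a stress hormone of the liver, had the widest estimate of the fixed genes, with changes of -1.52, 0.94 and 1.37 with BZP and of -1.76, -1.19 and -1.46 with TFMPP. Its difference of 1.73 had a 95% interval of 0.28 to 3.19 (adjusted p = 0.723), and for number 3 the controls differed by -2.73 and the treated arrays by 0.10. Aminoacyl-tRNA synthetases had a median difference of 0.25 with 0 of 21 called.

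MDBP and MeOPP are another benzyl and phenyl pair of piperazines, at 467 µM and 522 µM, and share no array with BZP and TFMPP. Their difference held 0 called probe sets, with 1519 at an unadjusted p under 0.05. Of the 13 genes called between BZP and TFMPP, 10 had the same sign between MDBP and MeOPP, all 13 were smaller, and 1 had pairs that did not overlap in the same direction, against 4.07% of all genes with MDBP above and 5.19% with MDBP below. Sdcbp2 differed there by 0.42, Gstt3 by -0.49, Gpam by 0.51 and Pvt1 by 0.56. Usp18 differed by 0.13 and Irf9 by 0.21, the opposite sign. A further limma test asked whether the BZP and TFMPP difference was unlike the MDBP and MeOPP difference, in either direction. This test called 0 probe sets (1100 at an unadjusted p under 0.05). Its smallest adjusted p was 0.182, reached by Irf9 at -1.41.

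Side by side with their nearest relatives, BZP against MDBP and TFMPP against MeOPP gave 0 called probe sets each by limma, with 1150 and 1721 at an unadjusted p under 0.05. These comparisons use the same BZP and TFMPP arrays as the difference above. Interferon list medians were 0.04 with MDBP and 0.02 with MeOPP, between those of BZP and TFMPP. With MDBP 1 of the 31 members rose and 2 fell, against 4.68% and 5.05% of all genes, and with MeOPP 0 rose and 1 fell, against 3.45% and 4.52%, counts near the background. Those that fell with MDBP were Rig1 and Ifih1, and the 1 that fell with MeOPP was among them.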

How the data were processed

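Per the submitters' processing notes, the deposited log2 expression values were made by the authors with RMA, which corrects background, applies quantile normalization and summarises probe sets (version not stated there). Values were used as deposited. A single gene symbol was listed for 20826 probe sets, more than 1 for 436 and no symbol for 9780; each of 14217 genes was represented by its brightest probe set.

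All 24 arrays entered a linear model in limma 3.58.1 (R 4.3.3) that held 12 terms for pairs and 4 for drugs, leaving 8 residual degrees of freedom plus 7.66 from the empirical Bayes prior. The contrast was BZP minus TFMPP, two-sided, with Benjamini-Hochberg adjustment over 31042 probe sets and calls at an adjusted p under 0.05. Arrays carry no read depth, and their number limits the precision. The model was tested on simulated data.

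Pairs come from the control titles. Treated arrays and their controls deviated together from their group means (r 0.676 to 0.802).

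The members, the 42 lists (907 of 1006 symbols measured) and the naming rule were chosen with earlier results of these data known. Named were up to 14 called genes per direction with pairs that did not overlap, up to 4 called members per list, 36 fixed genes, and opposite calls. Others were chosen after their values were seen. Promoters were matched by symbol to RefSeq (GRCr8). GAAANNGAA was not in the plan and was added after the values were seen. The 6 planned motifs (TGACNNNGC, GCGTG, TGATGNAA, TGACGTCA, GTCACGTG, TTGCGCAA, both strands, sites may overlap) were present in 15.2%, 46.9%, 2.41%, 2.93%, 3.55% and 0.264% of 11733 promoters. Of these 6, the 8 lower genes held only GCGTG, in 1, and the 3 higher genes TGACNNNGC in 2 and TGATGNAA in 1. Plots used matplotlib 3.10.9 under Python 3.11.15.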

Additional observations from a re-analysis of the deposited data

Results flagged for a closer look

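The change with BZP differed from the change with TFMPP, by limma's test of the difference with Benjamini-Hochberg adjustment, in 4 probe sets higher with BZP and 12 lower. By gene the differences were 1.85 for Sdcbp2, 1.40 for Dnase2b, 1.20 for Pvt1 and 1.00 for Gpam. They were -2.06 for Usp18, -1.81 for Oas1a, -1.66 for Apol9a, -1.47 for RT1-S3, -1.24 for Gstt3, -1.20 for Irf9, -1.19 for Irgm2, -1.11 for Dtx3l and -1.06 for Amigo1. On the arrays of number 3, the BZP-treated array was below the TFMPP-treated array by 0.13 in Sdcbp2 and above it by 0.45 in Gstt3. Both go against the sign of their differences of changes. In the other 11 genes the treated arrays had the sign of the difference in all 3 numbers. For Dnase2b in number 3 this was by only 0.08, while its controls differed by -1.16. Groups of 3 are too small for a test of single outlying samples.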

How the results depend on the processing

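The 4 higher and 12 lower probe sets were 0 and 0 without pair terms, with treated arrays only and with numbers 1 and 2 alone, 2 and 8 after a repeated quantile normalization, and 4 and 1 with only the arrays of the drugs compared. Leaving out 1 pair gave 0 to 3 higher and 0 to 32 lower. The 2867 probe sets changed with BZP were 38 without pair terms, 1063 with only the BZP arrays, 386 against the 12 DMSO arrays as 1 group, 1261 with numbers 1 and 2, and 1461 to 2672 without 1 pair. The 551 changed with TFMPP were 1, 1092, 20, 218 and 139 to 701 in the same order. With the replicate number as a block across the drugs, 6 were higher and 16 lower, and 9 of the 13 genes were called; Isg15, Rtp4 and Irf7 also passed (adjusted p = 0.0103, 0.0233 and 0.0264) and Mx2 did not (0.273). Deviations of same-numbered controls of the 2 drugs correlated at 0.573, 0.629 and 0.097 and those of the changes at 0.011, 0.102 and -0.178, so whether the numbers pair the drugs is unsettled. Of the 13 genes, 12 were called after median centring, with an intensity trend and with the mean of a gene's probe sets, and 13 among probe sets with a mean of at least 5. All 13 kept their sign in every alternative run. Where a run leaves the estimate unchanged or leaves out pairs, this was fixed in advance. The interferon list median stayed between -0.80 and -0.38. The cause of the lost calls was not tested. Fits that leave arrays out also hold fewer of them, and the part of this was not tested either.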

Other observations

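Anxa5, a membrane-binding annexin chosen after its values were seen, changed by 1.53, 1.59 and 1.53 with BZP and by 0.28, 0.10 and 0.45 with TFMPP, a difference of 1.28 that was not called (SE 0.26, limma adjusted p = 0.17). For number 3 its controls differed by -1.26 and its treated arrays by -0.18, against the sign of the difference. Of 17 V-ATPase subunits, which acidify lysosomes, 7 rose with BZP and 0 with TFMPP, against 6.66% and 0.872% of all genes. Their median difference was 0.17, with none called in the difference. With treated arrays alone the median was 0.07, and by number it was 0.15, 0.14 and -0.10. The controls of number 3 differed by -0.18. Of 28 proteasome subunits 0 were called with either drug, and the median difference was 0.14, 0.11 and 0.10 for numbers 1 to 3.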
